A study of Dicentrarchus labrax with 8 samples.

Results

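The genes examined in the European sea bass testis were the matrix genes matrix Gla protein (*mgp*) and thrombospondin 1 (*thbs1*), the water channel aquaporin 1 (*aqp1*), and the actin genes beta actin (*actb*) and junction mediating and regulatory protein (*jmy*). They were chosen by their stage difference on these same arrays, so that their values in stage II and stage I are given as a description and are not tested. They are 5 of the 11705 target names on the array. The targets are SeabassC-CL2340Contig1 for *mgp*, cDN25P0005I02.F.ab1 for *thbs1*, cDN25P0004K23.F.ab1 for *aqp1*, cDN26P0006L11.F.ab1 for *actb* and cDN32P0002J16.F.ab1 for *jmy*, and the gene names are those that the study gave to these targets. Their genome positions are not given in the sources used here.

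Testes of male sea bass were compared between the proliferative phase (stage II), with many cysts of dividing spermatogonia and a few with spermatocytes, and the immature phase (stage I), with early spermatogonia only. Fish were staged by histology and plasma 11-ketotestosterone. RNA of 18 males per stage was combined at random into 3 pools of 6 fish, and the pools are the replicates. One-colour arrays were used, with 3 stage II pools on plate P37, 3 stage I pools on plate P36, and pool 3 of each stage repeated on the opposite plate, which gave 8 arrays. The RNA came from unsorted testis tissue, left after the central part was taken for histology, so that fewer cells of a type and less RNA per cell cannot be told apart.

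The testis tubule is built by Sertoli cells that enclose germ cells in cysts and rest on a basement membrane, with contractile and secretory cells around it. Matrix Gla protein is a small secreted protein that holds back calcification of soft tissue, and thrombospondin 1 is a secreted glycoprotein that, in mammals, binds matrix and cell surfaces and can release active TGF beta. Aquaporin 1 lets water pass through cell membranes. Beta actin forms the filaments of the cytoskeleton, and the Jmy protein starts new filaments and, in mammals, also acts in the nucleus as a cofactor of p53.

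The sequences at hand for these genes were the primers that the study designed for qPCR of *aqp1*, shown 5′ to 3′ because they identify the transcript that the study measured by a separate method. Each has 20 bases, and neither was located on the array target.
aqp1 forward: ttggcagcaatcagctacac
aqp1 reverse: cccagtacacccagtggtct

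Signals are given as log2 values minus the array's own 75th percentile, with the probes of a gene averaged, and levels of different genes are not comparable on this scale. All 5 genes were lower in each stage II pool than in every stage I pool, a pattern that 39.3% of the 9019 tested targets also showed. Over these targets 578 were called lower in stage II, at an adjusted *p* under 0.01 from limma and a fold change over 2, which is 6.41%. Another 155 were called higher, so that 733 (8.13%) were called in either direction. The 5 genes are among the 578, which their choice by stage difference on these arrays made likely. Of the 302 tested targets of the study's list of differing genes, 30 were not called. The median target changed by -0.14 (log2, stage II minus stage I), and set against that median the changes of the 5 genes were -1.90 for *mgp*, -1.59 for *thbs1*, -1.30 for *aqp1*, -1.14 for *jmy* and -1.003 for *actb*. At the fold limit of the call, targets on its inner and outer side had log2 changes of -1.00024 and -0.997956, and *actb* lay nearest to it of the 5 genes.

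**Figure D1:**
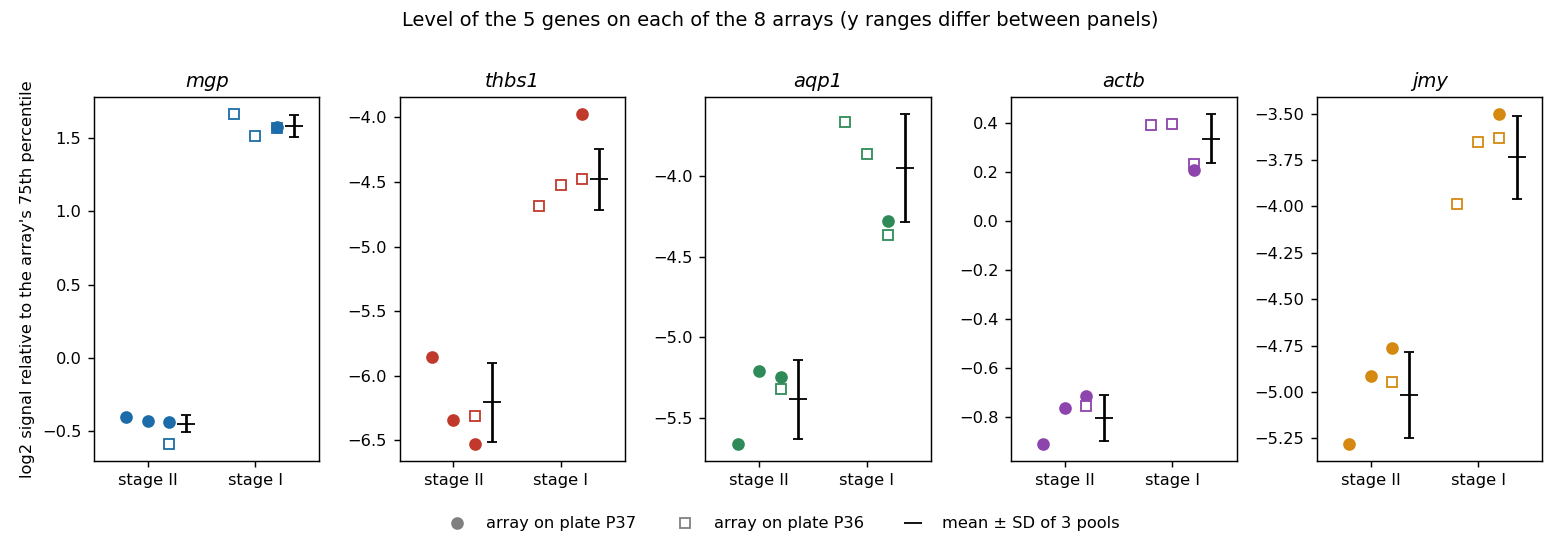
Log2 signal minus that of the array's 75th percentile (y axis, separate range for each gene) in stage II and stage I testes. Filled circles are arrays on plate P37, open squares are arrays on plate P36, and bars give the mean ± SD of the 3 pools. The stages do not overlap for any of the 5 genes, with the widest gap, 1.92, for *mgp* and the narrowest, 0.87, for *jmy*.

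The calcification inhibitor *mgp* had the largest measured change of the 5 genes with the settings used here. *thbs1* changed more within plate P37 and on the deposited log2 values. The signal of *mgp* was -0.40, -0.43 and -0.51 in stage II pools 1 to 3, against 1.67, 1.52 and 1.57 in stage I pools 1 to 3. The pools of a stage lay close together, and the lowest stage I pool was 1.92 above the highest stage II pool. The mean was -0.45 ± 0.06 in stage II and 1.58 ± 0.08 in stage I (SD, n = 3 each). This is a log2 fold change of -2.03 ± 0.08 (SE from limma), or 24.5% of the stage I level, and over the 9 pairs of pools it ranged between -2.18 and -1.92. Only 0.432% of the tested targets had a lower value.

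*thbs1* was also lower in stage II, where its probes were mostly not well above background, so that its measured change has no fixed place in the order of the 5 genes. Its signal was -5.85, -6.34 and -6.42 in stage II pools 1 to 3, against -4.69, -4.52 and -4.22 in stage I pools 1 to 3. Pool 1 was the highest of stage II and the lowest of stage I, so that the gap between the stages was set by the pools numbered 1. The mean was -6.21 ± 0.31 in stage II and -4.48 ± 0.24 in stage I (SD, n = 3 each), a log2 fold change of -1.73 ± 0.19 (SE), with 9 pairs of pools between -2.20 and -1.16.

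Only 2 of the 3 *thbs1* probes were used, because the third was well above background on 2 stage I arrays and on no stage II array. Of the probes used, one was well above background on 1 of 4 stage II arrays and the other on 0 of 4. On the array of stage II pool 1 they read 56.6 and 55.6 intensity units, where the lowest signal of any spot was 54.6. For the probe that was well above background on no stage II array, the measured stage I signal was 3.70-fold higher. This is a plain estimate from stage II signals near background and sets no lower limit on the change. Stage I signals of *thbs1* were weak as well. On stage I pool 2 each probe used had only 1 of 2 spots well above background. The probe with the 3.70-fold value also had 1 of 2 on stage I pool 3 on plate P36. Its SD between spots was 1.01 and 0.84 (log2) on these arrays.

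The water channel *aqp1* was lower in stage II by 1.44 ± 0.20 as measured on the log2 scale (SE). This rests on stage II signals that were largely not well above background, since its 4 probes passed on 2, 1, 2 and 1 of the 4 stage II arrays and on none for pool 1, against all 4 stage I arrays. Its signal was -5.66, -5.21 and -5.28 in stage II pools 1 to 3, against -3.66, -3.86 and -4.32 in stage I pools 1 to 3. Stage I pool 3 was the lowest of its stage, and still lay 0.89 above the highest stage II pool. The mean was -5.39 ± 0.24 in stage II and -3.95 ± 0.34 in stage I (SD, n = 3 each). The 9 pairs of pools gave changes between -2.00 and -0.89, the widest span of the 5 genes.

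*aqp1* was covered by 4 probes, among them one printed in 15 spots, which gives a direct view of the precision within an array. This probe was one of 54 on the array with 15 or 16 spots. On the arrays of stage II its 15 spots were well above background in 0 cases for pool 1, 4 for pool 2, 6 for pool 3 on plate P37 and 15 for pool 3 on plate P36. On every stage I array all 15 spots were above background. The SD between spots was 0.12, 0.34, 0.30 and 0.11 (log2) on these stage II arrays, in the same order, against 0.11, 0.14, 0.11 and 0.16 on the stage I arrays of pools 1, 2, 3 and 3 repeated. The spots of stage II pools 2 and 3 on plate P37 therefore scattered more than those of any stage I array. The SD of stage II pool 1 comes from spots that were not well above background. All these SDs were below the stage difference, but they are scatter within an array and do not measure the spread between pools. The mean SD of this probe over the arrays was 0.17, against a median of 0.09 over the 54 probes. With its log2 fold change of -1.42 ± 0.20 (SE), the probe lay within the range of the other 3 probes, -1.51 to -1.36.

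Of the actin genes, *actb* was bright on all arrays and changed least with the settings used here, though *jmy* changed less under some other settings. Its signal was -0.91, -0.76 and -0.74 in stage II pools 1 to 3, against 0.39, 0.40 and 0.22 in stage I pools 1 to 3. The mean was -0.80 ± 0.09 in stage II and 0.34 ± 0.10 in stage I (SD, n = 3 each), a log2 fold change of -1.14 ± 0.09 (SE), or 45.4% of the stage I level. Although its fold change was the smallest, the pools of each stage were tight and the gap between the stages was 0.95, wider than that of *aqp1*. Its 3 probes are 60 bases long. The RefSeq gene table of the species lists both *actb1* and *actb2*, so that which beta actin copy was measured is uncertain. The same table matched 0 symbols to *aqp1* and only *thbs1b* to *thbs1*, so it does not settle which copy was measured for these either.

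*jmy* was lower in stage II by 1.28 ± 0.16 as measured on the log2 scale (SE), also with stage II signals that were in part not well above background. Its signal was -5.28, -4.91 and -4.86 in stage II pools 1 to 3, against -3.99, -3.65 and -3.57 in stage I pools 1 to 3. In both stages pool 1 was the lowest. The mean was -5.02 ± 0.23 in stage II and -3.74 ± 0.22 in stage I (SD, n = 3 each), and the 9 pairs of pools lay between -1.71 and -0.87. Of its 3 probes, 2 were well above background on 3 of 4 stage II arrays and the third on 1 of 4, with no probe above background in stage II pool 1.

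The genes thus fell into those with full signal in both stages and those near the detection limit in stage II, of which *thbs1* was weak in stage I as well. All 3 probes of *mgp* and all 3 of *actb* were well above background on all 8 arrays. For *thbs1*, *aqp1* and *jmy* no probe was above background on all stage II arrays, so these genes entered the analysis through their stage I signal alone. Among the 1596 targets that entered in that way 18.9% were called lower in stage II, 0 were called higher and the median log2 change was -0.61, against 3.72% called lower and a median of -0.07 among the other 7423 targets. The array of stage II pool 1 had the fewest spots well above background, 60.2% against 75.8 to 86.7% on the other 7 arrays. Its lowest signal of any spot was 54.6 units, against 7.85 to 22.8 on the others, and its *thbs1* probes lay near that lowest signal. This array gave the lowest stage II value for *aqp1*, *actb* and *jmy* and the highest for *mgp* and *thbs1*. Its part in these values was not tested beyond leaving it out. Without stage II pool 1 the log2 fold changes were -2.05 for *mgp*, -1.90 for *thbs1*, -1.30 for *aqp1*, -1.15 for *jmy* and -1.09 for *actb*.

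**Figure D2:**
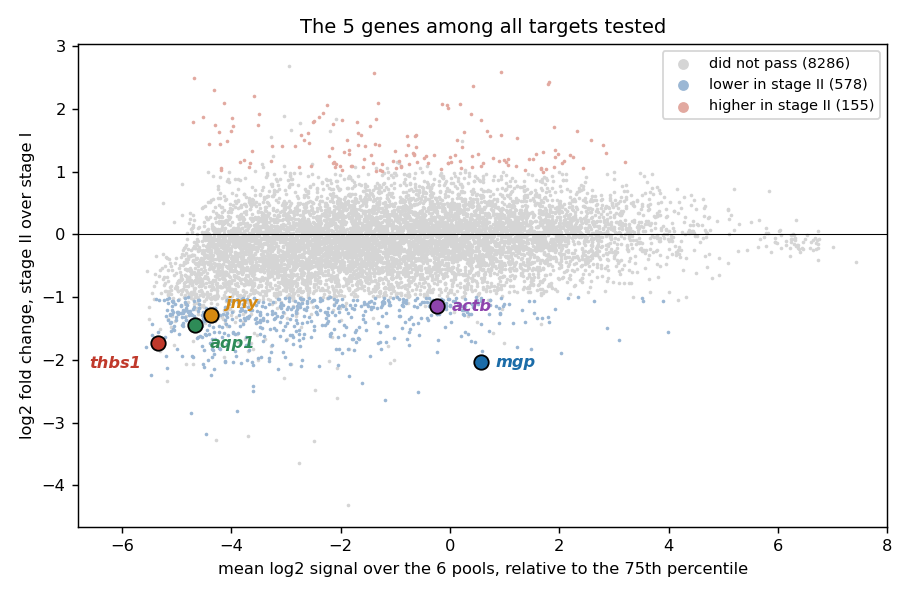
Log2 fold change (stage II over stage I, y axis) against the mean log2 signal of the 6 pools relative to the 75th percentile (x axis) for the 9019 tested targets. Blue points were called lower in stage II (578), pink points higher (155), and the 5 genes are drawn as large circles. *mgp* and *actb* lie in the middle of the signal range, whereas *thbs1*, *aqp1* and *jmy* lie at its dim end, where few points are above 0.

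The scanner signals before any scaling showed the same order. *mgp* read 2516 to 3327 intensity units on the stage II arrays, against 7753 to 9155 on the stage I arrays. *actb* read 1870 to 2747 units in stage II, against 3224 to 3804 in stage I. The dim genes were also separated, though *aqp1* by very little, with 64.7 to 122 units in stage II against 125 to 215 in stage I. *jmy* read 84.3 to 148 units in stage II against 176 to 265 in stage I, and *thbs1* 42.7 to 56.1 units in stage II against 106 to 191 in stage I. Over all targets with a signal on every array, 6.33% were separated in this way with stage II lower. The 75th percentile itself was higher on the stage II arrays, at 3245 to 4402 units, than on the stage I arrays, at 2559 to 2994 units, so that scaling widened the difference for each of the 5 genes.

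Each gene was measured by several probes. The log2 fold changes were -2.16 to -1.92 over the 3 probes of *mgp*, -1.89 to -1.54 over the 3 of *thbs1*, -1.51 to -1.36 over the 4 of *aqp1*, -1.19 to -1.09 over the 3 of *actb* and -1.32 to -1.21 over the 3 of *jmy*. No probe overlapped between the stages, in genes that were chosen for their stage difference. The share over all probes was not counted, and 39.3% of the tested targets also lay without overlap and lower in stage II. Whether a probe changed differently from the other probes of its gene is a question that the choice of genes did not use, and it was tested with limma over 13994 probes. Of the 15 probes of these genes in that test, 0 differed at an adjusted *p* under 0.05 and 0 at an unadjusted *p* under 0.05, against 6 (0.0429%) and 2465 (17.6%) of all probes. The probes of *thbs1*, *aqp1* and *jmy* that entered this test, 9 of the 15, were near background in stage II, and for them the test says little, so that it bears mainly on the 6 probes of *mgp* and *actb*. The largest difference was 0.32 ± 0.22 (log2, SE) between the *thbs1* probes, with an adjusted *p* of 0.516 from limma. The smallest adjusted *p* was 0.304, for an *actb* probe that differed by 0.08 ± 0.03. In *thbs1* the probes spread more widely than in 88.3% of targets with at least 2 usable probes. The same share was 78.6% for *mgp* and 41.5% for *actb*.

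**Figure D3:**
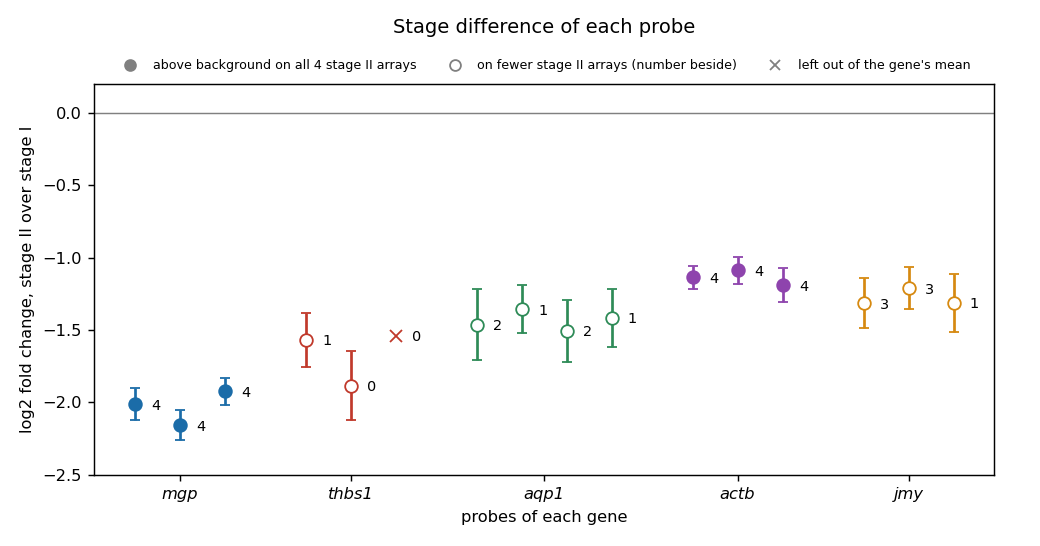
Log2 fold change of each probe (stage II over stage I, y axis) by gene (x axis), with bars for the SE from limma. The number beside a probe counts the stage II arrays, out of 4, on which it was well above background, and the cross is the *thbs1* probe that was left out of the gene mean. All 16 probes are below 0, and only those of *mgp* and *actb* are filled circles.

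The repeated arrays of pool 3 showed how far a value moves when the same RNA is hybridised again. For *mgp* the array on plate P37 was higher than that on plate P36 by 0.15 in stage II and by 0.01 in stage I. For *aqp1* the same differences were 0.07 in stage II and 0.09 in stage I, and for *actb* 0.04 in stage II and -0.03 in stage I. *jmy* differed by 0.19 in stage II and 0.13 in stage I. The widest differences were those of *thbs1*, at -0.22 in stage II and 0.50 in stage I, and the stage I value was larger than that of 96.7% of all targets. The SD of this difference over all targets was 0.16 for the stage II pool and 0.21 for the stage I pool, so only *thbs1* moved by more than that SD in both stages.

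Plate and stage were partly separated by these repeats, and the plate difference was tested apart from stage with limma over 8994 targets. None of the 5 genes passed an adjusted *p* of 0.05, which 8 targets did (0.0889%), and 0 of the 5 genes had an unadjusted *p* under 0.05, against 674 of the 8994 targets. A count of 0 among 5 genes says little beside that share, and only pool 3 of each stage lay on both plates. The largest plate difference was that of *thbs1*, 0.18 ± 0.15 higher on P37 (log2, SE, adjusted *p* = 0.867 from limma), and *jmy* had the smallest adjusted *p*, 0.769, with 0.15 ± 0.09. Within plate P36, where a single stage II array was set against 3 stage I arrays, the log2 changes were -2.17 for *mgp*, -1.75 for *thbs1*, -1.35 for *aqp1*, -1.10 for *actb* and -1.19 for *jmy*. Within plate P37, with 3 stage II arrays against a single stage I array, they were -2.00 for *mgp*, -2.27 for *thbs1*, -1.10 for *aqp1*, -1.003 for *actb* and -1.48 for *jmy*. The arrays of the stages did not overlap within either plate for any of the 5 genes. With a single array of a stage on each plate and genes chosen for their stage difference, this is a description. The share over all targets was not counted.

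The variation of the 5 genes between pools was compared by correlation. Over the 6 pools Pearson's *r* between them ran between 0.84 (*thbs1* and *aqp1*) and 0.99 (*mgp* and *actb*), values that rest on the shared stage difference. After the stage means were taken off, *r* was 0.94 between *aqp1* and *actb*, while the values for *thbs1* were -0.94 with *aqp1* and -0.96 with *actb*. The *thbs1* values include that of stage II pool 1, which lay at the lowest signal of its array, so no opposite movement of the genes can be read from them. For *aqp1*, too, 0 of 4 probes were well above background on that array, so no shared movement with *actb* can be read. Between *mgp* and *jmy* the value was -0.80, and *jmy* likewise had 0 of 3 probes well above background there. All these are descriptions over 6 pools that share arrays and scaling. The named genes of the study's list most like each member over the 6 pools, out of 152 compared, were *snx19* (*r* = 0.998) and *epgn* (0.994) for *mgp*, *epgn* (0.982) and *anxa2* (0.977) for *thbs1*, *mustn1* (0.995) and *klk* (0.992) for *aqp1*, *lrrc17* (0.998) and *adamts1* (0.998) for *actb*, and *sh3bgrl3* (0.996) and *tppp3* (0.989) for *jmy*. Counting the named gene itself, between 3 (*snx19* with *mgp*) and 66 (*tppp3* with *jmy*) tested targets had an *r* at least as high. A high *r* therefore does not single out the named gene. With the stage means taken off, *mgp* no longer followed *snx19* (*r* = -0.10) or *epgn* (-0.17). For the genes named beside the other members *r* stayed between 0.52 (*anxa2* with *thbs1*) and 0.95 (*klk* with *aqp1*). For the bright *actb* it was 0.91 with *lrrc17* and 0.88 with *adamts1*. The values of *thbs1*, *aqp1* and *jmy* include their dim stage II signals. Between *aqp1* and *mustn1*, a gene of the muscle and skeletal system, *r* was 0.95, a value that includes the same dim *aqp1* signal.

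Other genes of the same roles were taken from the study's own list of differing genes, so their direction is not independent evidence. Of 12 genes of matrix and secreted proteins 11 had a tested target, of which 8 were called lower in stage II and 1 higher, with a median log2 change of -1.58. Over the 302 tested targets of the whole study list 160 were lower and 112 higher, with a median of -1.19. Beside *mgp* and *thbs1*, the lower ones were *lox*, the enzyme that cross-links collagen and elastin (-2.00 ± 0.21, log2 with SE here and for the genes that follow), *lrrc17* (-1.74 ± 0.12), the proteoglycan-cleaving protease *adamts1* (-1.58 ± 0.11), *olfm1* (-1.37 ± 0.10), *igfbp5*, which binds insulin-like growth factors (-1.33 ± 0.12), and the protease inhibitor *tfpi2* (-1.30 ± 0.13). The proteoglycan gene *ogn* had a change of -1.66 ± 0.37 and did not pass. The other growth factor binding gene, *igfbp6*, was higher in stage II (2.21 ± 0.33), and the collagen-degrading protease *ctsk* changed by 0.96 ± 0.14, short of the fold limit. Some of the lower genes were dim in stage II. For *adamts1*, *olfm1* and *igfbp5* all usable probes were well above background on only 1 of 4 stage II arrays. A strict filter on dim probes left 7 genes of this list, with 5 called lower, 1 higher and a median of -1.30.

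Of the 9 genes of actin and cell adhesion 5 were called lower and 2 higher, with a median of -1.14. In the study's list, from which they were taken, 160 of the 302 tested targets were lower and 112 higher. The median was the value of *actb*, which was well above background on all arrays, in a list with values of both signs. A strict filter, which drops a probe that is dim on any array, left 6 of the 9 genes. Of these, 3 were called lower and 1 higher, with a median of -0.09. The median thus depended on which genes were kept. Among the genes that act on actin filaments were some with values opposite in sign to those of *actb* and *jmy*. Cofilin (*cfl1*) and the actin depolymerizing factor *adf1*, which sever filaments, changed by 0.96 ± 0.10 and 0.97 ± 0.11 and did not pass the fold limit, and anillin (*anln*), a scaffold of the contractile ring of dividing cells, was higher in stage II (1.34 ± 0.12). The actin-associated *synpo* (-1.64 ± 0.10), the membrane-binding annexin *anxa2* (-2.09 ± 0.12) and the desmosome cadherin *dsg2* (-1.95 ± 0.27) were lower, but *cdh17*, another cadherin, was higher (2.09 ± 0.15). For *anxa2* all usable probes were well above background on 0 of 4 stage II arrays, and for *dsg2* on 3. *cfl1* and *adf1* passed the call with median scaling, where the list had 4 genes higher and 5 lower.

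Of the 6 channels and transporters 5 were called lower and 0 higher, against 6.41% called lower over all tested targets. In the study's list, from which they were taken, 160 of the 302 tested targets were lower and 112 higher. The strict filter on dim probes left 2 of them, of which 1 was called lower. With *aqp1* these were the chloride channel family gene *clic2* (-1.39 ± 0.22), the prostaglandin transporter *slco2a1* (-1.47 ± 0.17), the mitochondrial carrier *slc25a25* (-1.52 ± 0.23) and *olf186-F*, named after the *Drosophila* gene of the calcium channel Orai (-2.10 ± 0.21). The proton pump subunit *atp6v0e1* changed by 0.65 ± 0.10 and did not pass. For *olf186-F* all usable probes were well above background on only 1 of 4 stage II arrays, and for *clic2* and *slc25a25* on 3. No gene of the 3 lists changed sign under any setting tried, which their choice from the study's list of differing genes made likely. The number called lower among channels and transporters was between 1 and 5. Among actin and adhesion genes it was also between 1 and 5, and with the normexp background correction both were 1. Among matrix and secreted genes it was between 3 and 9. Without stage II pool 1 the calls were 9 lower and 2 higher among matrix and secreted genes, 5 lower and 2 higher among actin and adhesion genes, and 5 lower and 0 higher among channels and transporters.

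**Figure D4:**
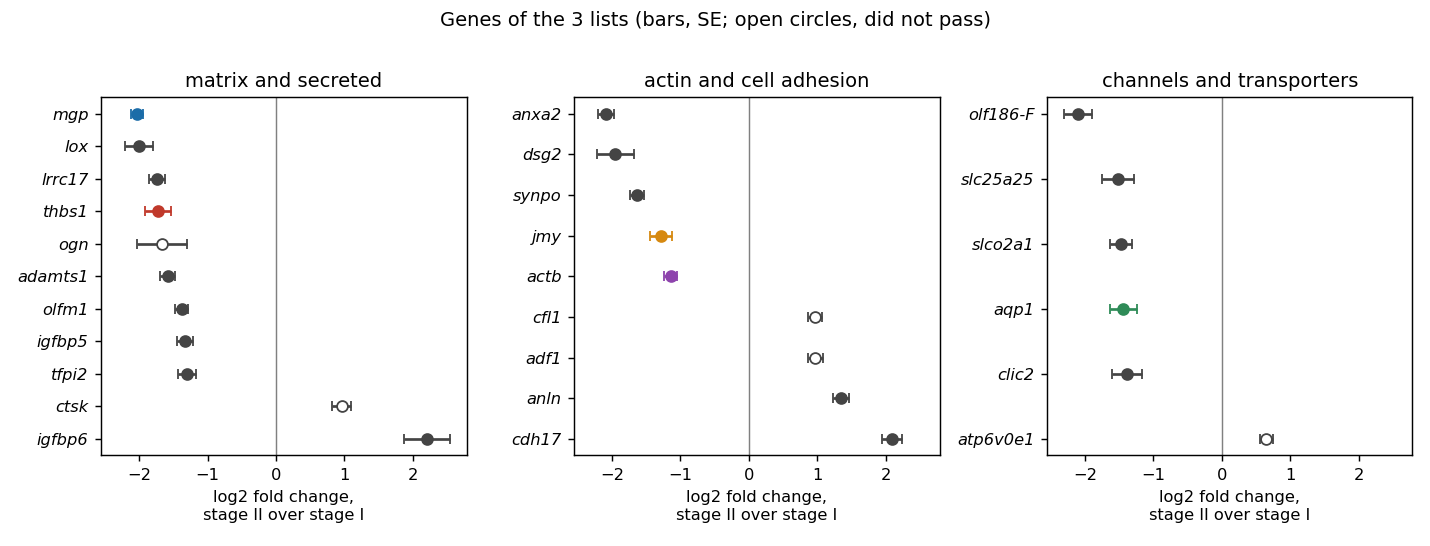
Log2 fold change (stage II over stage I, x axis) of the tested genes of the 3 lists, with SE bars. Filled circles passed the call, open circles did not, and the 5 genes are coloured. *mgp* lies at the low end of its list at -2.03, and *actb* and *jmy* lie apart from *cfl1*, *adf1*, *anln* and *cdh17*, which are above 0.

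The study placed *thbs1* and *actb* in signalling groups, and *mgp* and *thbs1* among genes for cation binding. It also placed members in groups not compared here. Among these is the cell cycle group, with *thbs1* and *jmy*, most of whose genes the paper lists as upregulated. *thbs1* stood in the TGF beta group with the receptor *tgfbr1* (-1.79 ± 0.13) and *amh* (-1.19 ± 0.19), and all 3 were lower in stage II. In focal adhesion *thbs1* and *actb* were lower, while the cyclin *ccnd2* changed by 0.99 ± 0.09 and did not pass the fold limit. In the Hippo group *amh*, *tgfbr1* and *actb* were lower, and *ccnd2* was again the gene with a positive value. Of 8 cation-binding genes, with *mgp* and *thbs1* among them, 6 were lower and 1 higher. These groups are drawn from the study's list, of whose 302 tested targets 160 were lower and 112 higher.

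Markers of cell types are given beside these values. They too were taken from the study's list of differing genes, so that a stage difference was built into their choice and is not independent evidence. Of the 302 tested targets of that list 160 were lower and 112 higher. All 4 markers of meiotic germ cells and all 3 of proliferating cells were higher in stage II, with mean log2 levels per pool of -0.09 to 0.50 in stage II against -1.65 to -1.28 in stage I for the meiotic markers, and of 0.64 to 0.95 in stage II against -0.79 to -0.44 in stage I for the proliferation markers. The Sertoli cell gene *amh* was lower, at -1.003 to -0.47 in stage II against 0.26 to 0.78 in stage I. The connective tissue markers *lox* and *ogn* were at -4.84 to -3.77 in stage II against -2.48 to -2.22 in stage I, and the muscle marker *mustn1* was at -2.22 to -1.79 in stage II against -0.93 to -0.40 in stage I. Of the 3 immune markers, 2 were lower and 1 higher. Every marker was above background on some array. The part of a change in cell makeup in the values of the 5 genes was not tested.

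The direction of the 5 genes held under every setting that gave a value, which their choice by stage difference on these arrays made likely. Leaving out a pool could not change the direction, since the pools of the stages did not overlap. The replicate block cannot move the value. The log2 fold change stayed between -2.12 and -1.57 for *mgp*, -2.85 and -1.18 for *thbs1*, -2.09 and -1.26 for *aqp1*, -1.72 and -0.94 for *jmy*, and -1.22 and -0.66 for *actb*. *mgp* remained the most stable in proportion to its change, and the widest range belonged to *thbs1*, whose change was smallest with the normexp background correction (-1.18) and largest with the deposited log2 values shifted to the 75th percentile. With normexp the SE was 0.62 for *thbs1*, 0.44 for *aqp1* and 0.50 for *jmy*, against 0.11 for *mgp* and 0.10 for *actb*, and on the shifted deposited values it was 0.73, 0.59 and 0.46 for *thbs1*, *aqp1* and *jmy*. The call, which the choice of genes made likely, was kept by *mgp* under all 17 alternatives and by *actb* under 16 of 17. It was kept by *thbs1* under 12, *aqp1* under 9 and *jmy* under 11 of 16. These last genes all lost it with normexp and on both forms of the deposited values. *thbs1* lost it also without the filter on dim probes, *aqp1* and *jmy* with quantile normalization, *aqp1* with the replicate block, *aqp1* without stage I pool 1 (-1.29), and both *aqp1* (-1.39) and *jmy* (-1.24) without stage I pool 2. *actb* was less than 2-fold lower only on the deposited values without scaling, where the median of all targets was 0.33, and *jmy* only with quantile normalization (-0.94) and normexp (-0.99). Relative to the median of all targets under the same setting, the change of *actb* lay between -1.09 and -0.82 and that of *mgp* between -2.00 and -1.69.

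**Figure D5:**
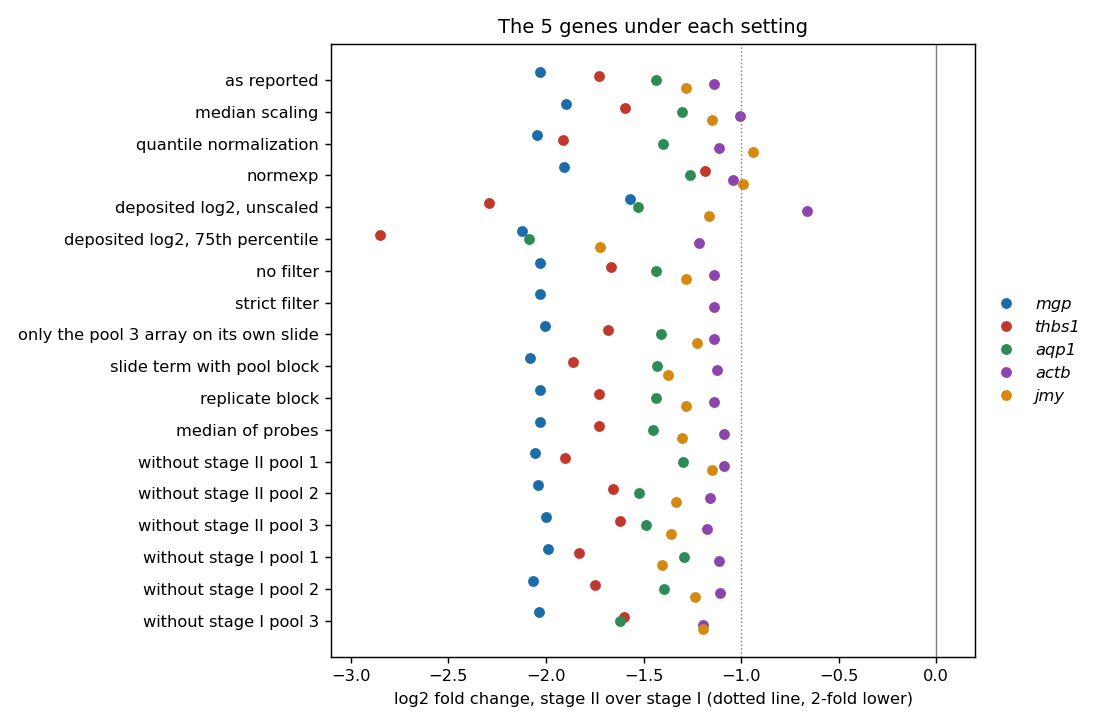
Log2 fold change (stage II over stage I, x axis) of the 5 genes under each way of processing and with each pool left out (y axis). All points are left of 0, *thbs1*, *aqp1* and *jmy* have no value under the strict filter, and the points of *jmy* and *actb* right of the dotted line fell short of a 2-fold change.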

How the data were processed

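Each pool was amplified, labelled with Cy3 and hybridised to a custom array of 60-base probes, with 43803 spots that are not controls for 24200 probes. The deposited scanner files hold spot intensities that the authors obtained with Agilent Feature Extraction (version 10.4 per the labels, 10.7.3.1 per the file headers), background-corrected but not yet scaled to one another. A deposited table of log2 values was found to be the log of each spot's background-subtracted signal, unscaled. The text copies deposited per array hold the same values and were not used.

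From the log2 of each processed intensity the array's 75th percentile was subtracted. Outlier spots were removed before the spots of 1 probe were averaged. A probe counted as well above background on an array if at least 50% of its spots were, and was kept if this held on every array of at least 1 stage (18278 of 24200 probes). Probes of a target were averaged, as were the repeated arrays of pool 3. Stages were compared with limma 3.58.1 (lmFit and eBayes, Benjamini-Hochberg adjustment) in R 4.3.3 on 6 pools without covariates, the plate in a fit on stage and plate with pools as a random block, and each probe against the mean of the other probes of its target. The study's filter on standard deviation was not repeated. The steps were tested on simulated data.

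The array signal over background limits the precision, and 60.2 to 86.7% of spots were well above background. Symbols came from the study's list of differing genes, and none of the probe sequences was used. The genes, lists and rules were chosen with earlier results of these data known. The genes named are the 5 members, the genes of 3 lists by role, some of the study's pathway groups with a member, the cell type markers, and for each member the 2 listed genes with the highest *r*. Settings tried were other scalings, background corrections, filters, starting values, probe averages, plate and pool blocks, and leaving out each pool. The list calls under these settings were added after seeing the data.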

Additional observations from a re-analysis of the deposited data

How the results depend on the processing

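Over 82 repeats of the log2 fold changes of the 5 genes, 57 moved by less than the SD between pools of a stage, 13 moved by more, 12 equalled the reported value and 0 changed sign. Leaving out a pool could not change a sign, because all 9 pairs of pools were lower for each gene. The call was kept in 65 of the 82. The strict filter, which drops a probe that is dim on any array, gave no value for *thbs1*, *aqp1* and *jmy*. The count of targets that differed between stages was 733, of which 21.1% were higher in stage II. It was 138 with normexp, 474 with the deposited log2 values at the 75th percentile, 456 without a filter, 433 with the strict filter and 83 with the methods' t-test after Benjamini-Hochberg adjustment, against 604 with that test unadjusted. Leaving out a pool gave 268 (without stage I pool 2) to 916 (without stage II pool 3), with 385 without stage I pool 1. The share of higher targets was 90.4% on unscaled deposited values (729 higher and 77 lower), 37.8% with median scaling (260 and 428), 38.7% with quantile normalization (207 and 328), 34.1% with normexp (47 and 91), 33.1% without a filter (151 and 305) and 35.3% with the strict filter (153 and 280).

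The count for the plate was 8, and 13 with the strict filter. Leaving out a pool gave 0 (without stage I pool 3) to 71 (without stage II pool 3), where without a pool 3 the correlation of all 8 arrays was used, and the other 4 pools gave 1 to 3. Probes that differed from the others of their target numbered 6, and 11 with quantile normalization, 14 with the strict filter, 0 with the replicate block and 0 to 12 with a pool left out (12 without stage II pool 3 and 0 without any of the other 5). None of the 5 genes or their probes passed in any of these, with the smallest adjusted *p* from limma between 0.101 and 0.912 for the plate and between 0.205 and 0.608 for the probes. An unadjusted *p* under 0.05 from limma was reached for the plate by 1 of the 5 genes with quantile normalization and by 1 without stage II pool 3. Among the probes it was reached by 1 with quantile normalization, with the strict filter, without stage I pool 1 and without each stage II pool.

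With the pool number as a replicate block the stage count was 503 (139 higher and 364 lower). Pools were formed at random, and the deviations of same-numbered pools correlated at -0.004, -0.003 and -0.06, so the pools share only a number. With 1 pool of each number per stage the block cannot move a log2 fold change, but under it *aqp1* lost its call. Signal over background limits what can be said of *thbs1*, *aqp1* and *jmy* in stage II.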
